A study of Homo sapiens with 2 samples.

Results

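The genes described are the protein tyrosine phosphatases and dual-specificity phosphatases on arrays of R-HL60, a cytarabine-resistant leukaemia line, and of its parent HL60. Members were taken by name: every row whose gene name begins with PTPN or DUSP and a number, with PTPR and a letter, or with PTP4A. This gave 70 of the 43317 names, on 108 of the 58201 probes. Of the 70 names, 64 belong to phosphatase families and 6 do not: PTPRCAP encodes a protein that binds CD45, PTPRD-AS1, PTPRD-AS2 and PTPRG-AS1 are non-coding transcripts, and PTPRVP and DUSP5P1 are pseudogenes. PTPRN and PTPRN2 belong to the receptor family by sequence, but their proteins lack tyrosine phosphatase activity.

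HL60 is an established line of acute myeloid leukaemia with promyelocytic character. R-HL60 was obtained from it by continuous culture with rising concentrations of cytarabine, a deoxycytidine analogue that stops DNA synthesis after phosphorylation in the cell, whereas the HL60 sample is labelled as untreated. Each line was represented by 1 array labelled with Cy3 and read as 1 colour, so no difference has a test, a standard error or a p-value, and the line and the array cannot be told apart. R-HL60 is 1 resistant line, and whether it is a clone, or carried the drug at harvest, the sources used here do not say.

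Protein tyrosine phosphatases remove phosphate from tyrosine through a catalytic cysteine and so oppose, or in some cases switch on, tyrosine kinases. Receptor-type members span the membrane, non-receptor members act in the cytoplasm or nucleus, and the MAP kinase phosphatases among the DUSP genes inactivate ERK, JNK and p38 by taking phosphate from both threonine and tyrosine of the activation loop. In blood cells CD45 (PTPRC), SHP1 (PTPN6) and SHP2 (PTPN11) set the strength of SRC family, cytokine receptor and RAS signalling.

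Signals are linear intensities, and a log2 difference is R-HL60 minus HL60 after each array was divided by its 75th percentile. The floor was the median signal of the array, 32.8 for R-HL60 and 30.7 for HL60. Both arrays measured 49 of the 70 names above the floor, 1 array measured 2 names and 19 names were below it throughout. A gene above the floor on 1 array has only a bound, and one below it on both has no difference. The brightest probe represents a gene with several. For the 21838 genes that both arrays measured, the median log2 difference was -0.03 with an SD of 0.29 across genes. Where a gene had several measured probes, as 4723 genes did, its probes differed from each other with an SD of 0.19 on the log2 scale. That SD was 0.27 in the dimmest of 4 brightness classes and 0.12 in the brightest, and it leaves out any spread between cultures or arrays.

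All 11 promyelocytic markers examined, MPO and CEBPE among them, were above the floor on both arrays. Their summed signal was 866000 on R-HL60 and 966600 on HL60, most of it from MPO and CTSG. Of the 11, 10 had a log2 difference below 0, from -2.20 for the elastase gene ELANE, -0.80 for PRTN3 and -0.46 for CEBPA, and SPI1 was at 0.08. Of the markers of other cell types, EPCAM and CDH1 (epithelial) and COL1A1, COL1A2, COL3A1 and LUM (fibroblast) were below the floor on both arrays. The 3 epithelial markers measured on both arrays differed by 0.09 to 0.78, and the summed signal of the epithelial list was 1874 on R-HL60 and 1670 on HL60. Of 6 fibroblast markers, PDGFRB was measured on both arrays at 0.17 and DCN on R-HL60 only, with a bound of 0.29, and the list summed to 124.5 on R-HL60 and 108.4 on HL60. The 4 measured T cell markers differed by -0.36 to 0.65, and their list summed to 6387 on R-HL60 and 4114 on HL60, most of it from CD3D with 6201 on R-HL60 and 3923 on HL60. The 4 measured B cell markers differed by 0.10 to 0.67, with sums of 3372 on R-HL60 and 2956 on HL60. The 3 measured erythroid markers differed by -0.18 to 0.22, with sums of 1138 on R-HL60 and 1080 on HL60. Their part in the phosphatase results was not tested.

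The clearest difference in the family was the low signal on R-HL60 of the receptor phosphatase PTPRS and of the cytoplasmic phosphatase PTPN14. These were the 2 members at least 2-fold lower, and 0 of the 51 members with a signal above the floor in either line were at least 2-fold higher. Of all 23531 genes with such a signal, 0.297% were at least 2-fold lower and 0.786% at least 2-fold higher. The other 47 members measured on both arrays lay within 2-fold. With 2 genes and no replicate arrays, this count describes these arrays only.

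PTPRS, a LAR-type receptor phosphatase known for binding heparan and chondroitin sulphate proteoglycans on neurons, had a signal of 127 on R-HL60, against 556 on HL60. The log2 difference was -2.14, or 4.40-fold lower, and only 0.0366% of genes measured on both arrays had a lower difference. A further probe of PTPRS gave 33.9 on R-HL60, close to the floor, and 55.1 on HL60. Its log2 difference of -0.71 had the same sign but stayed within 2-fold. With 50 units added to every signal, which shrinks folds resting on dim signals, the brighter probe was 3.44-fold lower.

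PTPN14, a phosphatase with a FERM domain that binds the Hippo pathway co-activator YAP, had a signal of 62.4 on R-HL60, against 148 on HL60. The log2 difference was -1.25, or 2.38-fold lower, with 0.160% of genes lower. A further PTPN14 probe read 31.1 on R-HL60, below the floor, and 76.1 on HL60, which gives a bound of -1.22. The remaining probe was below the floor on both arrays, at 3.69 on R-HL60 and 9.24 on HL60. Every PTPN14 probe thus had a lower signal on R-HL60, and the dim signals limit the call: with the offset of 50 units the brightest probe was 1.77-fold lower, within 2-fold.

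The upstream sequences of the only 2 genes past 2-fold are shown to give the context of the genes that differ. Each is the 250 bases before the annotated start in RefSeq, build GRCh38.p14, printed 5′ to 3′ on the strand of the gene. Capitals mark GGGCGG (the GC box) on either strand. The PTPRS stretch is chr19:5340813-5341062 and the PTPN14 stretch chr1:214551603-214551852, both on the minus strand.
PTPRS: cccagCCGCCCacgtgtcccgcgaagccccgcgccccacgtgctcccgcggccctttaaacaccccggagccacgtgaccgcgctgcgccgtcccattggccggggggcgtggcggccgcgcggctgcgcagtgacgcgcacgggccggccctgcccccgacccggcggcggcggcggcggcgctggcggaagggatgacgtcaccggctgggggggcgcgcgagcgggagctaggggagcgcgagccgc
PTPN14: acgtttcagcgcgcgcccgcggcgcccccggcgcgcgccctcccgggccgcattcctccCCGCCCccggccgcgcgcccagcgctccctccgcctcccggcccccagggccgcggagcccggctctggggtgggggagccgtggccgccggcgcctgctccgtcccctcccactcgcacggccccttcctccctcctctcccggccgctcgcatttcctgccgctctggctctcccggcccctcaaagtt
Both stretches were rich in CpG, with 44 CG pairs and 80.8% G or C for PTPRS and 36 CG pairs and 80.0% for PTPN14. The median was 25 CG pairs over the 55 member promoters in the table and 11 over all 27305 promoters, so many CG pairs are common in the family. The PTPRS and PTPN14 stretches each held 1 GC box, found on the reverse strand, against 67.3% of the 55 member promoters and 42.3% of all promoters with at least 1. Neither held TATAAA or the NF-kB consensus on either strand, so no motif overlapped another. The NF-kB consensus was present in 7 of 55 member promoters (12.7%) and in 9.57% of all, and TATAAA in 2 of 55 (3.64%) and in 11.1% of all. A match describes letters in this window and not a bound site. The other 15 names had no promoter entry in the table.

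No neighbouring gene above the floor on both arrays was at least 2-fold lower on R-HL60. Of all genes 0.297% were, so finding none among so few neighbours is near the background and is no result about them. A neighbour below the floor on either array was left out, so a loss to below the floor on R-HL60 could not be seen. Among the 10 nearest measured protein-coding genes on each side of PTPRS on chromosome 19, a check chosen after its value was seen, log2 differences ran from -0.49 for PRR22 to 1.35 for LRG1, with a median of -0.03. None was 2-fold lower, the adjacent KDM4B and SAFB2 being at -0.28 and -0.10. Around PTPN14 on chromosome 1 the 20 neighbours ran from -0.32 for RRP15 to 1.02 for ATF3, with a median of -0.05, and the adjacent SMYD2 and CENPF were at -0.16 and -0.08.

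**Figure D1:**
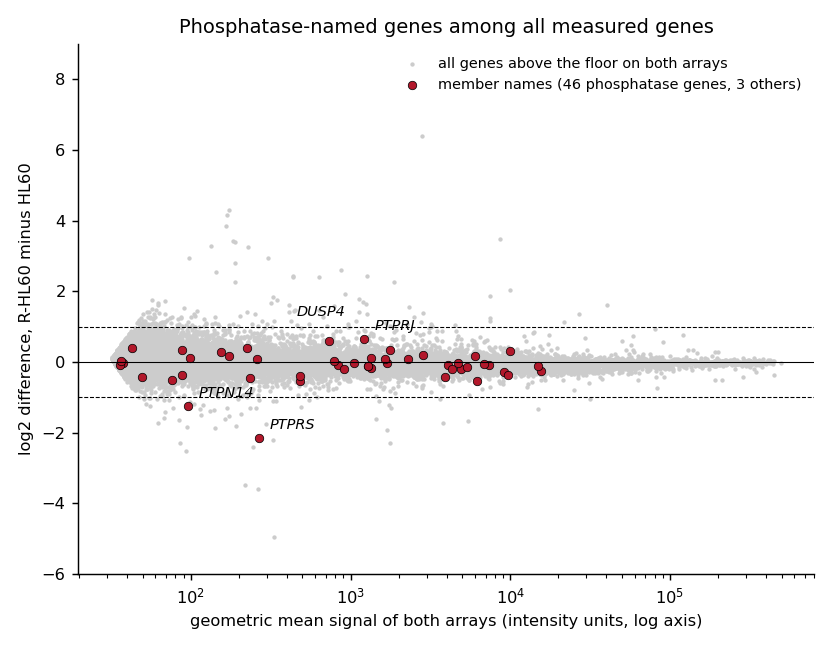
Log2 difference (R-HL60 minus HL60, vertical axis) against the geometric mean signal of both arrays (horizontal log axis, intensity units) for the genes above the floor on both arrays, with the 49 member names measured there in red (46 phosphatase genes and 3 other names) and dashed lines at 2-fold. PTPRS at -2.14 and PTPN14 at -1.25 lie below the lower line, and PTPRJ at 0.67 and DUSP4 at 0.60 are the highest members.

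Of the 20 receptor-type names, 11 were measured on both arrays, with 4 differences above 0, 7 below 0 and a median of -0.08. Over all genes measured on both arrays 42.8% had a difference above 0, against 18 of 49 members (36.7%). Besides PTPRS, the receptor-type members with a log2 difference of at least 0.5 in size were PTPRJ on the higher side and PTPRN2 and PTPRU on the lower. In the whole family 2 members were higher and 5 lower by this measure, where 4.91% and 2.10% of all 23531 genes were. Such differences lie under 2-fold and have no replicate.

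PTPRJ, the receptor phosphatase CD148 that acts on growth factor receptors and SRC family kinases, was the highest of all members. Its signal was 1529 on R-HL60 and 958 on HL60, a log2 difference of 0.67 or 1.59-fold. Its other probe was below the floor on both arrays, at 19.7 on R-HL60 and 19.1 on HL60, so the difference rests on 1 probe.

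PTPRN2, a membrane protein of dense-core secretory granules, had a signal of 5160 on R-HL60 and 7412 on HL60, a difference of -0.53 on the log2 scale. PTPRU, a receptor-type family member of the MAM-domain group involved in cell contacts, had 63.8 on R-HL60 and 90.9 on HL60, a difference of -0.52. For each of them the other probe was below the floor on both arrays. The PTPRU difference was -0.32 with the offset, since both of its signals are dim.

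CD45 itself was slightly higher on R-HL60, by less than 2-fold. The brightest of 5 PTPRC probes read 6340 on R-HL60 and 5626 on HL60, a log2 difference of 0.16. All 5 probes were measured on both arrays and all had differences above 0, from 0.05 to 0.70. The highest of these belonged to the dimmest probe, which read 78.6 on R-HL60 and 48.2 on HL60. PTPRCAP, whose product associates with CD45, had 4022 on R-HL60 and 4568 on HL60, a log2 difference of -0.19. PTPRA and PTPRE, related receptor phosphatases that can activate SRC by removing its inhibitory phosphate, differed by -0.06 and 0.04.

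Within the LAR group the measured genes were lower on R-HL60, by unequal amounts on their brightest probes. PTPRF, which encodes LAR, had a signal of 425 on R-HL60 and 551 on HL60, a log2 difference of -0.38, beside -2.14 for PTPRS. The further PTPRS probe was at -0.71. The other PTPRF probe was below the floor on both arrays, at 2.55 on R-HL60 and 8.24 on HL60. PTPRD, the remaining member of the group, was below the floor on both arrays, at 1.64 on R-HL60 and 2.08 on HL60. Whether the difference of PTPRS exceeds that of PTPRF beyond the spread between cultures was not tested.

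The other receptor genes measured were PTPRO, known from podocytes and from B cells, at -0.42, the endothelial phosphatase gene PTPRB at -0.08 and PTPRH at 0.02. PTPRO, PTPRB and PTPRH were all dim, with R-HL60 signals of 42.8, 35.3 and 36.9. The 9 receptor-type names below the floor on both arrays were PTPRD, PTPRG, PTPRK, PTPRM, PTPRN, PTPRQ, PTPRR, PTPRT and PTPRZ1. On R-HL60 their signals were at most 29.8 (PTPRG), and on HL60 at most 25.4 (PTPRN). These genes have no measured difference here.

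**Figure D2:**
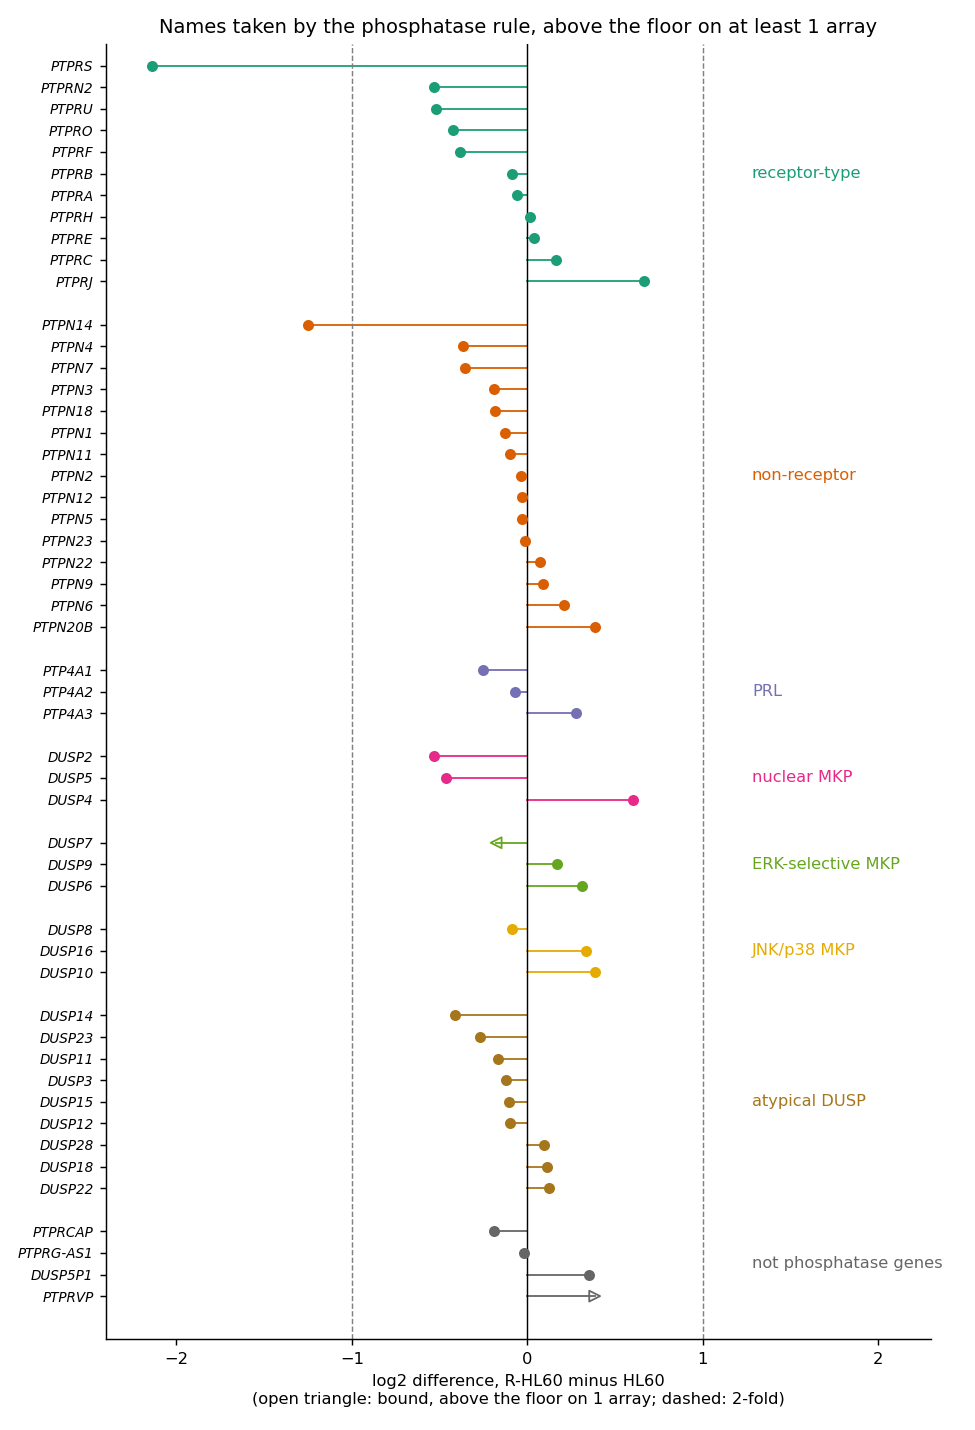
Log2 difference (R-HL60 minus HL60, horizontal axis) of the 51 names above the floor on at least 1 array, grouped by role from the receptor-type genes at the top. Filled points are measured on both arrays, open triangles for DUSP7 and PTPRVP are bounds, and dashed lines mark 2-fold, which PTPRS and PTPN14 pass.

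PTPN14 was the one non-receptor gene past 2-fold. Of 17 names, 15 were measured on both arrays, with a median of -0.04, 4 differences above 0 and 11 below, and the 14 other than PTPN14 lay within 0.5 on the log2 scale. PTPN6, which encodes the inhibitory phosphatase SHP1, had a signal of 3042 on R-HL60 and 2621 on HL60, a difference of 0.21. PTPN11, which encodes SHP2 and passes signals from receptors to RAS, had 7114 on R-HL60 and 7562 on HL60, a difference of -0.10 with a further probe at -0.17. The SD between probes was 0.14 and 0.12 in the 2 brightest classes, and it leaves out any spread between cultures or arrays. It therefore cannot tell whether PTPN6 or PTPN11 differs between the lines. The PTPN6 difference rests on 1 probe.

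PTPN1 (PTP1B) and PTPN2, which act on JAK kinases and STAT factors, differed by -0.13 and -0.04. PTPN7, a haematopoietic phosphatase of ERK and p38, had a signal of 8597 on R-HL60 and 10925 on HL60, a difference of -0.35 that rests on 1 bright probe. PTPN22, a lymphoid and myeloid phosphatase that acts on SRC family kinases, differed by 0.07 on its brightest probe and by 0.46 on another. Its brighter probe read 1691 on R-HL60 and 1597 on HL60, and the other read 276 on R-HL60 and 200 on HL60.

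PTPN20B had the highest difference of the non-receptor group at 0.39, with dim signals of 49.2 on R-HL60 and 37.4 on HL60. The name is an older symbol of PTPN20, which has near-identical copies, so its probes may not separate them. PTPN4 and PTPN3, which carry FERM and PDZ domains, differed by -0.37 and -0.19, and PTPN18 and PTPN12, which belong to the PEST group, by -0.18 and -0.03. PTPN9, PTPN5 and PTPN23, the last an adaptor of endosomal sorting, were at 0.09, -0.03 and -0.01. PTPN13 and PTPN21, FERM-domain relatives of PTPN14, were below the floor on both arrays. PTPN13 read 1.62 on R-HL60 and 10.2 on HL60, values too dim for a difference.

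The 3 PRL genes, whose small prenylated phosphatases bind magnesium transport regulators, were all measured and stayed within 0.5 on the log2 scale. PTP4A1 had a signal of 14243 on R-HL60 and 16864 on HL60, a difference of -0.25, and its 2 further probes gave -0.18 and -0.19. PTP4A2 differed by -0.07. PTP4A3 was at 0.28 on its brightest probe (170 on R-HL60 and 139 on HL60) and at -0.28 on the other (101 on R-HL60 and 122 on HL60). The probes of PTP4A3 thus disagree in sign and give it no direction. PTP4A1 and PTP4A2 have pseudogene copies in the reference table, which their probes may also read.

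**Figure D3:**
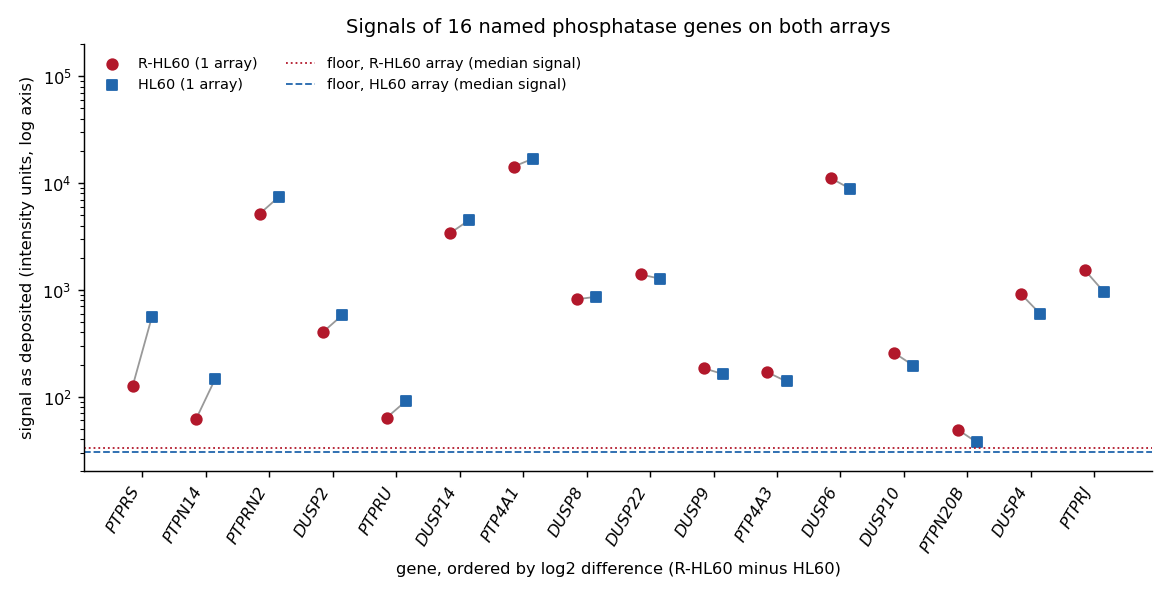
Signals as deposited (intensity units, log axis) of the 16 named phosphatase genes on R-HL60 (red circles) and HL60 (blue squares), ordered by log2 difference, with the floor of each array as a horizontal line. PTPRS (127 on R-HL60, 556 on HL60) and PTPN14 (62.4 on R-HL60, 148 on HL60) stand apart, and levels of different genes are not comparable because probes differ.

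The MAP kinase phosphatases differed in both directions by less than 2-fold. Of 10 genes, 8 were measured on both arrays, 5 with a difference above 0 and 3 below, and the median was 0.24. Among the inducible nuclear enzymes, DUSP4, which acts on ERK and JNK and is itself a target of ERK signalling, had 907 on R-HL60 and 594 on HL60, a log2 difference of 0.60 or 1.52-fold. DUSP2 had 405 on R-HL60 and 581 on HL60, a difference of -0.53, or 1.44-fold lower. DUSP5, which is specific for ERK, had 200 on R-HL60 and 274 on HL60, a difference of -0.46. Each of these 3 genes had 1 probe, so the opposite signs of DUSP4 on the one side and DUSP2 and DUSP5 on the other could not be checked on a further probe. DUSP1, the immediate early phosphatase of p38 and JNK, was below the floor at 1.65 on R-HL60 and 2.27 on HL60 and has no difference.

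The cytoplasmic enzymes selective for ERK were slightly higher or near the floor. DUSP6, a feedback inhibitor of ERK, had 11088 on R-HL60 and 8866 on HL60, a log2 difference of 0.31. DUSP9 was at 0.17, with 185 on R-HL60 and 163 on HL60. DUSP7 was above the floor on HL60 only, at 27.2 on R-HL60 and 36.9 on HL60, and is at least 1.13-fold lower.

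Of the genes selective for JNK and p38, DUSP10 had 257 on R-HL60 and 195 on HL60, a log2 difference of 0.39. DUSP16 had 99.6 on R-HL60 and 78.6 on HL60, a difference of 0.33. DUSP8 was at -0.08, with 818 on R-HL60 and 862 on HL60, and its 3 measured probes ranged from -0.15 to 0.13, so it has no settled sign.

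None of the 9 measured atypical dual-specificity genes reached 0.5 on the log2 scale, and their median was -0.10. DUSP14, a regulator of MAP kinase and TAB1 signalling, was lowest, with 3402 on R-HL60 and 4496 on HL60, a difference of -0.41. DUSP22, which acts on JNK signalling and on LCK, was highest, with 1396 on R-HL60 and 1276 on HL60, a difference of 0.12 and a further probe at 0.30. In between, DUSP23 was at -0.27, the RNA phosphatase gene DUSP11 at -0.17, the ERK and JNK phosphatase gene DUSP3 at -0.12, DUSP15 and DUSP12 at -0.10 each, DUSP28 at 0.10 and DUSP18 at 0.11. DUSP13, DUSP19, DUSP21, DUSP26 and DUSP27 were below the floor on both arrays, with at most 25.1 on R-HL60 and 26.7 on HL60. DUSP13 and DUSP27 are each an older symbol of several genes, so these rows name no single gene.

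Among the names that are not phosphatase genes, DUSP5P1 had 2007 on R-HL60 and 1565 on HL60, a log2 difference of 0.35, while DUSP5 was at -0.46. As the pseudogene derives from DUSP5, a probe of one may also read the other, and both values are uncertain in this respect. PTPRVP was above the floor on R-HL60 only, at 40.3 on R-HL60 and 30.0 on HL60, and is at least 1.30-fold higher. PTPRG-AS1 was at -0.02, and PTPRD-AS1 and PTPRD-AS2 were below the floor on both arrays.

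Probes for 1 gene that were measured on both arrays mostly shared a sign. The matching share over all genes with several measured probes is not given here, so the count has no background. Of 12 members with several probes measured on both arrays, 10 had the same sign on every probe and 2, PTP4A3 and DUSP8, did not. The median distance between the lowest and the highest probe was 0.15 on the log2 scale. The widest was 1.43 for PTPRS, whose probes agree in sign and not in size. The other 37 members measured on both arrays rest on 1 measured probe.

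**Figure D4:**
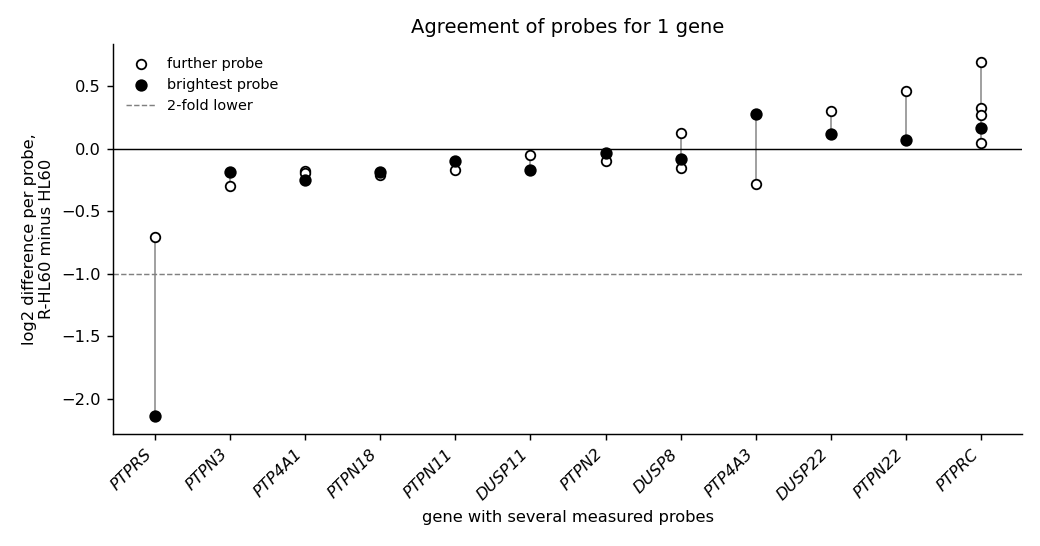
Log2 difference (R-HL60 minus HL60, vertical axis) of each probe measured on both arrays for the 12 members with several such probes, the brightest probe filled and further probes open. The probes of PTPRS lie at -2.14 and -0.71, those of PTP4A3 at 0.28 and -0.28, and the 5 PTPRC probes all lie above 0.

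The substrates and partners of these phosphatases, taken as 8 lists, held no gene counted as at least 2-fold higher or lower. Of all genes 0.786% were higher and 0.297% lower by this rule, so a count of 0 in lists of this size is near the background and is no result about them. In the MAP kinase module, 24 of 26 genes were measured on both arrays, with a median of -0.05, and all but MAPK15 lay between -0.18 and 0.16. MAPK15 was at 0.55 with dim signals of 45.2 on R-HL60 and 30.7 on HL60. The kinase genes that the MAP kinase phosphatases act on included MAPK3 at 0.16, MAPK8 at -0.18 and MAPK14 at 0.04.

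Genes transcribed in response to ERK ran from FOSL1 at -0.91 to IER3 at 0.88, with a median of -0.06 over 13 measured genes. FOSL1, an AP-1 subunit, had 388 on R-HL60 and 723 on HL60, and the zinc finger factor EGR1 was at -0.67. IER3, an early response gene that NF-kB also induces, had 319 on R-HL60 and 173 on HL60. The ERK feedback genes SPRY2 and SPRY4 were at -0.15 and 0.34, beside 0.31 for DUSP6. The list had 6 genes above 0 and 7 below, where 42.8% of all genes measured on both arrays were above 0. This split is near that share and is no result about the list.

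Of the SHP2 and RAS partners, 15 were measured on both arrays, from the adaptor gene FRS2 at -0.24 to GAB3 at 0.30, with a median of 0.03. The 9 measured genes of the SRC family list had a median of -0.02, with 3 above 0 and 6 below. LCK, a substrate of CD45 in lymphoid cells, was lowest at -0.74, with 145 on R-HL60 and 241 on HL60, while LYN and the inhibitory kinase gene CSK were at -0.01 and 0.00.

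Receptors that recruit SHP1 had a median of 0.14 over 17 genes measured on both arrays, 9 of them above 0. They ran from SIGLEC7 at -0.50 to MPIG6B at 0.93, and both of these were dim: MPIG6B read 87.8 on R-HL60 and 45.7 on HL60. The inhibitory receptor gene CD300LF was at 0.75, with 557 on R-HL60 and 329 on HL60, and SIRPA, LAIR1 and CD33 were at 0.14, -0.10 and -0.18.

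Ligands and liprins of the LAR group, the partners of PTPRS, had a median of -0.07 over 15 genes measured on both arrays. They ran from the liprin gene PPFIA4 at -0.52 to the glypican gene GPC3 at 0.36, and the syndecan gene SDC1 had 6750 on R-HL60 and 7786 on HL60, a log2 difference of -0.21. JAK and STAT genes ran from STAT5B at -0.40 to JAK3 at 0.78 (3558 on R-HL60 and 2063 on HL60), with a median of 0.03 over 10 genes. Other phosphatases and their relatives outside the 70 names had a median of -0.01 over 29 genes. They ran from the cell cycle phosphatase gene CDC25A at -0.32 to EYA2 at 0.72. EYA2 had dim signals of 61.2 on R-HL60 and 37.0 on HL60, and its product does not use a catalytic cysteine.

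**Figure D5:**
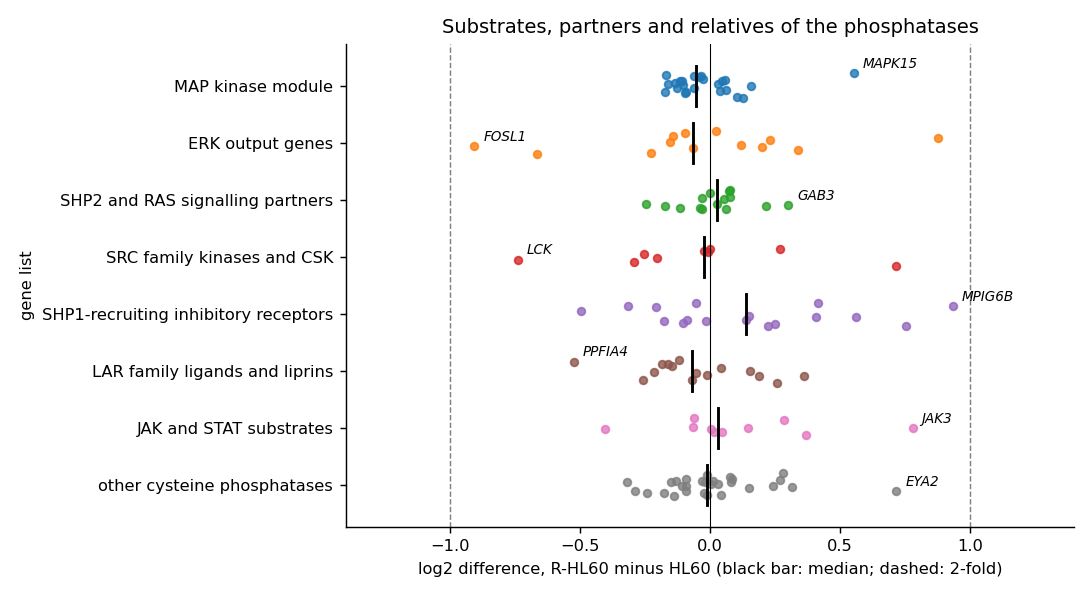
Log2 difference (R-HL60 minus HL60, horizontal axis) of the genes measured on both arrays in 8 lists of substrates, partners and relatives, with the median of each list as a black bar and dashed lines at 2-fold. Every gene lies within 2-fold, and the labelled gene of each list is the one farthest from 0, such as FOSL1 at -0.91 and MPIG6B at 0.93. The list labelled other cysteine phosphatases also holds phosphatases of other classes, EYA2 among them.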

How the data were processed

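Gene expression was measured on 1 Agilent one-colour array per line, for R-HL60 and for HL60. The submitters' processing notes name Agilent Feature Extraction, version 10.7.3.1. The authors deposited 1 linear intensity per probe with a gene name for each array, and a table of normalized intensities. The scanner column behind the intensities, the background treatment and the method behind the table are not given in the sources used here. When sorted, the table's values differed by at most 1.06% from the rank means of both arrays, and it served as an alternative.

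Names were updated where they were an older symbol of 1 gene (assembly GRCh38.p14), which left 43270 genes; the 70 members keep the name of the files. Signals were divided by the 75th percentile of the array and taken to log2. The floor was the median signal, as no detection flags were at hand. A bound is the value above the floor minus the floor of the other array. Calls used 2-fold.

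Members were named with both signals where the log2 difference reached 0.5 in size, or where it was the largest in either direction in a role group. This rule took 16 members. Further members, such as PTPRC, PTPN6 and DUSP5, were given with both signals outside this rule. From partner lists the rule took the genes past 2-fold or otherwise the largest difference in each direction, and other genes were named after their values were seen. A few genes of these lists are not reported here. The members and lists were chosen with earlier results of these data known. The scaling was replaced by quantile normalization, by the median, by loess and by the authors' table. An offset of 50 units, a floor at the 40th or the 60th percentile, no floor, and the mean over a gene's probes were also tried, as were calls at 1.5-fold, at 3-fold and on every measured probe. Having 1 array per line limits the precision. The steps were tested on simulated data, with changes put only into bright genes and the same noise for every gene. Recovery of changes in dim genes was therefore not tested. Analyses used Python 3.11.15, numpy 2.4.6, pandas 2.3.3, statsmodels 0.14.6 and matplotlib 3.10.9.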

Additional observations from a re-analysis of the deposited data

How the results depend on the processing

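PTPRS stayed at least 2-fold lower on R-HL60 in all 9 other scaling, floor and probe settings, from -2.23 with the median shift to -1.42 with the mean of all probes. PTPN14 stayed past 2-fold in 7 of them. It was at -0.82 with the offset of 50 units, which left 1 member at least 2-fold lower, and had a bound of -0.53 in the mean of all probes. That mean gave 2 lower members, PTPRS and PTPRF, PTPRF entering at -1.04 through a probe below the floor on both arrays. At 3-fold 1 member was lower (PTPRS). When every measured probe had to pass, 1 was lower: PTPN14, which has 1 probe measured on both arrays, where PTPRS has 2. Members at least 2-fold higher numbered 2 without a floor (PTPRT and PTPRZ1, both below the floor used here), where PTPN13 also joined the lower side at -2.66, and 2 at 1.5-fold (PTPRJ and DUSP4). The member median ran from -0.16 with the median shift to -0.04 with loess. Of 142 values of the 16 named members in these settings, 10 moved by over 1 SD between probes. Of these 10, 6 moved with the mean of all probes, where PTPRN2 (0.16) and PTP4A3 (-0.00) changed sign. Many of the 142 values could not move. The lower floor and no floor returned the main value of each named member, as did the mean for members with 1 probe. Quantile normalization and the authors' table gave nearly the same values, with PTPRS at -2.14 in both. The 9 settings are therefore not 9 separate checks. No paired analysis was possible because each line has 1 array.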
